A study of Mus musculus with 6 samples.

Results

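The genes described here encode the proteins that bring insulin granules to the plasma membrane and fuse them with it: SNAREs, Munc18 and Munc13 proteins, synaptotagmins and synaptotagmin-like proteins, complexins, CAPS proteins and their partners. The 39 genes were chosen by symbol, current or older, and not by a measured value, although earlier results of these arrays were known when the list was drawn up. Of these, 38 had at least 1 probe, with 57 probes in all, out of 39429 probes on the array. No probe carried an accession that could be matched to Syt5. A further 2 genes, Sytl2 and Myrip, were well above background on no siGFP array and were not tested, which left 36 genes of the 25776 genes and unnamed transcripts tested. All 36 were well above background on all 6 arrays, so none entered the test through a single group.

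The cells were MIN6B1, a line derived from a mouse insulinoma that secretes insulin and stands in for pancreatic beta cells. MIN6B1 is a clone of the MIN6 line, so both groups model 1 clone. For 48 h they carried either a small interfering RNA (siRNA) directed at circHIPK3, which is a circle of RNA spliced from Hipk3 transcripts, or siGFP, an siRNA against green fluorescent protein, as the control. Each group had 3 samples, each on its own single-colour Agilent array, and both groups received the same transfection reagent. The labels give no other genotype or agent and do not say whether the samples were separate cultures, so p-values reflect only how much these samples varied, and that variation may be technical. The 3 siGFP arrays and circHIPK3 siRNA replicate 1 were recorded in the same scan, and circHIPK3 siRNA replicates 2 and 3 in another.

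A granule fuses when a vesicle SNARE of the VAMP family zips together with syntaxin and a SNAP protein on the plasma membrane. Munc18 proteins hold syntaxin ready, Rab effectors tether the granule, RIM, Munc13 and CAPS proteins prime it, and complexins and calcium-binding synaptotagmins couple fusion to the calcium that enters when glucose depolarises a beta cell. NSF and its adaptor alpha-SNAP then take the spent complex apart so that it can be used again.

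No member passed the test. At an adjusted p under 0.05, 0 of 36 members were called, where 1.18% of all genes were. The largest differences, by the brightest probe of each gene, were those of Syt4, which had higher values after circHIPK3 siRNA, and of Cadps2, Vamp3, Syt11 and Syt7, which had lower values, and these 5 were also the members with an unadjusted p under 0.05 (13.9% of the 36, against 21.1% of all genes). For the core fusion SNAREs Snap25, Stx1a and Vamp2 the groups overlapped. Here and below a change is the mean log2 signal of the circHIPK3 siRNA arrays minus that of the siGFP arrays, relative to each array's 75th percentile, with limma's standard error (SE), and an adjusted p is limma's two-sided p with Benjamini-Hochberg adjustment over all 25776. In bulk RNA, fewer cells making a transcript and less transcript per cell cannot be told apart.

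The arrays had 75th percentiles of 2939 to 3669 units. The share of probes well above background was 77.7% to 79.8% on siGFP arrays and 80.7% to 83.5% on circHIPK3 siRNA arrays. The groups did not overlap in this share, and its part in the changes was not tested. The 18 beta cell markers were all well above background on all arrays, and none passed the test. Their summed signal, in units of each array's 75th percentile, was 633.9 to 690.3 on the siGFP arrays and 614.1 to 669.5 on the circHIPK3 siRNA arrays. Markers of other islet cells were tested for 7 of 10 genes (summed signal 37.2 to 59.9 and 27.7 to 44.7), of exocrine and duct cells for 9 of 11 (0.800 to 0.961 and 0.956 to 1.22), and of stromal, endothelial and blood cells for 7 of 10 (2.01 to 2.46 and 2.20 to 2.54), and none of them passed. Pnlip and Sox9 among the exocrine and duct markers and Cdh5, Cd68 and Lyz2 among the last list were not well above background in full in either group or had no matched probe. Gcg, the glucagon gene, was well above background on all arrays, at a log2 signal of 4.39 ± 0.46 (SD, n = 3) and 3.80 ± 0.48 (SD, n = 3). The same held for all 7 tested markers of other islet cells, of which 3 had changes below 0 and 4 above (median 0.11). Gcg and Ttr, both below 0, had the highest signals of the 7, while Sst, Ppy, Pyy and Ghrl were above 0. Hipk3 itself had a change of -0.17 ± 0.14 (SE, adjusted p = 0.50), and where in the transcript its probe lies is not given here, so this is no check of the circHIPK3 level.

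**Figure D1:**
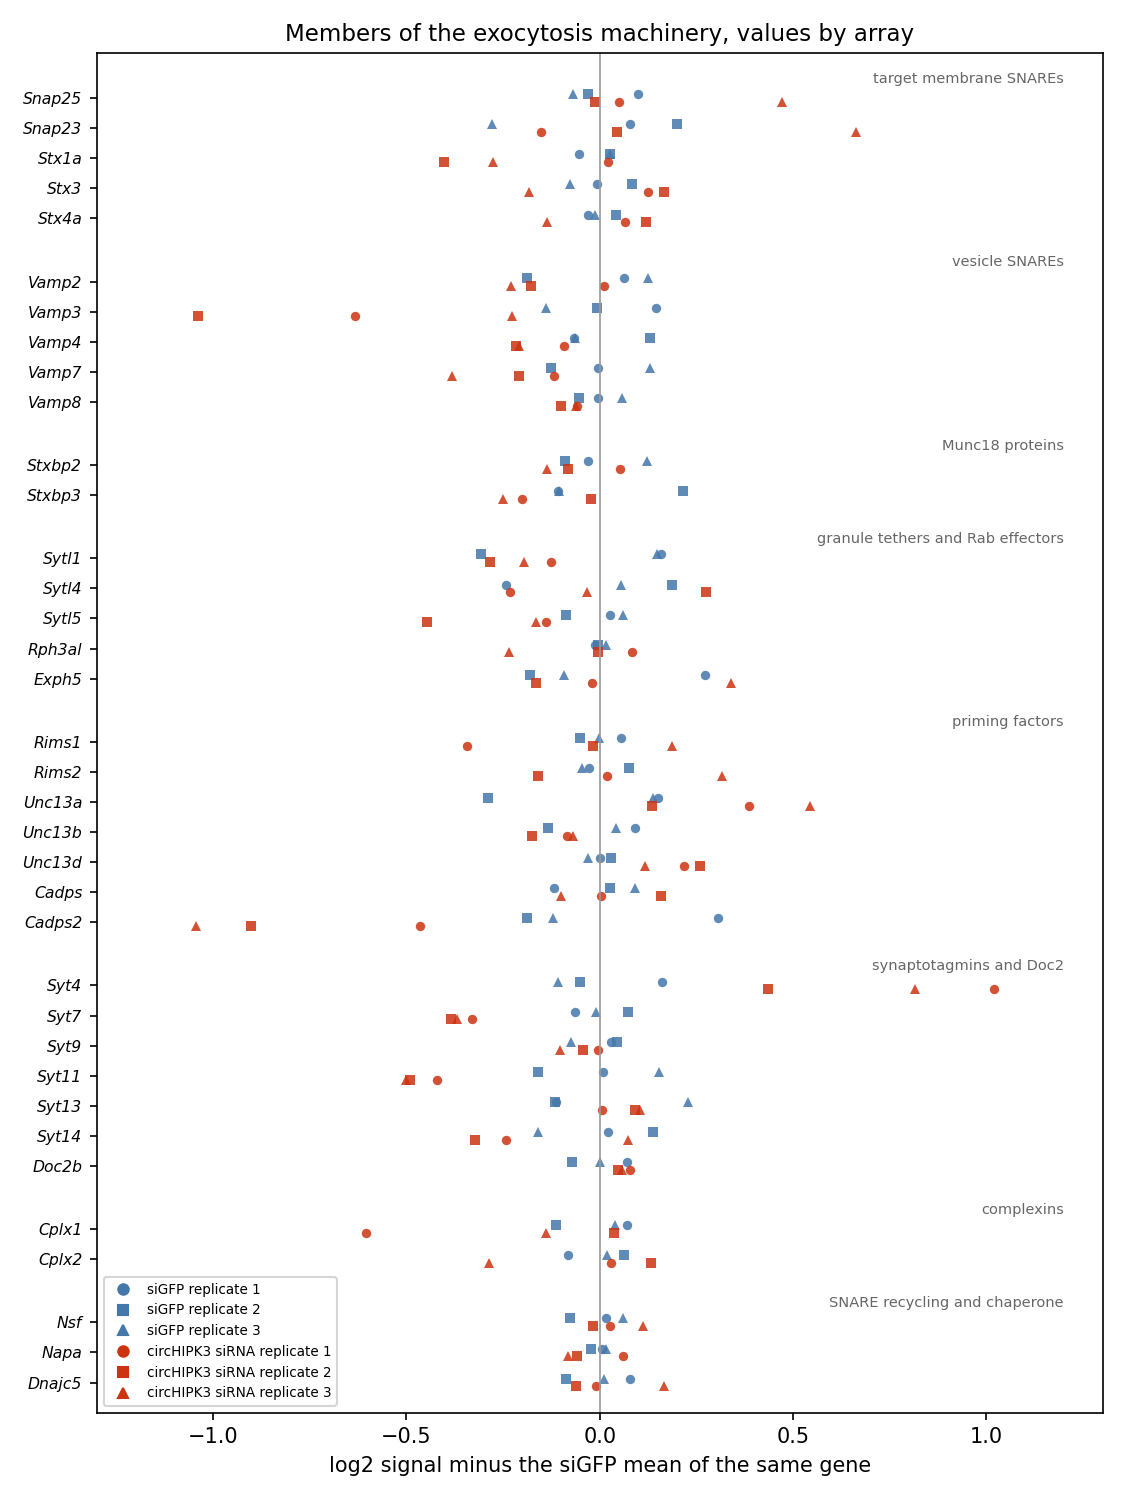
Log2 signal of each tested member on every array, minus the mean of the 3 siGFP arrays for the same gene (x axis), by role (y axis); blue points are siGFP arrays, red points circHIPK3 siRNA arrays, and the shape gives the replicate. The red points of Cadps2, Vamp3, Syt11 and Syt7 lie to the left of all blue points and those of Syt4 to the right, while for 27 of the 36 members the groups overlap. Of all genes, 9.38% were separate and lower and 16.6% separate and higher, and the rest overlapped.

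Synaptotagmins sense the calcium that triggers fusion, and held the member with the highest change. Syt4, a form with weak calcium binding that acts on granule maturation and on the calcium sensitivity of release, had log2 signals of 0.67, 0.46 and 0.40 on the siGFP arrays (replicates 1 to 3, as in all lists that follow) and 1.53, 0.95 and 1.33 on the circHIPK3 siRNA arrays. All 3 circHIPK3 siRNA arrays were higher than all siGFP arrays, by 0.76 ± 0.16 (SE) or 1.69-fold, with an adjusted p of 0.0716, which misses the threshold. Its 95% interval ran from 0.37 to 1.14. Within the scan shared by both groups, whose only treated array is circHIPK3 siRNA replicate 1, the difference was 1.02. Here and below such a difference is that array minus the siGFP mean. The fit with scan as a fixed block gives the same change, so it is no separate check. The call was made with normexp background correction (0.78, limma adjusted p = 0.0414) and with trend and robust variance (0.76, limma adjusted p = 0.0299), within a range of 0.0299 to 0.238 over 18 alternatives.

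Syt11, a form that does not bind calcium in the usual way and acts in membrane trafficking, differed in the other direction. Its log2 signals were -0.15, -0.32 and -0.0029 for siGFP and -0.58, -0.65 and -0.66 for circHIPK3 siRNA. The treated arrays lay close together and below every control array, with a change of -0.47 ± 0.11 (SE, adjusted p = 0.0870) and a difference of -0.42 within the shared scan. Syt7, a high-affinity calcium sensor for insulin secretion, gave -2.41, -2.27 and -2.36 against -2.68, -2.73 and -2.72. Here too the groups did not overlap, with a change of -0.36 ± 0.09 (SE, adjusted p = 0.101) and -0.33 within the shared scan. A dimmer Syt7 probe, at -3.18, -3.28 and -3.21 against -3.26, -3.53 and -3.49, gave -0.20 ± 0.11 (SE) with overlapping groups. Both Syt11 and Syt7 passed with array weights (limma adjusted p = 0.0300 and 0.0430) and under no other alternative, with ranges of 0.0300 to 0.437 and 0.0430 to 0.464.

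The calcium sensor Syt9, which has been tied to insulin release, the atypical Syt13, Syt14 and the soluble sensor Doc2b had changes of -0.05 ± 0.09, 0.07 ± 0.12, -0.16 ± 0.14 and 0.06 ± 0.09 (SE). Over the 7 tested genes of this group the median change was -0.05, with 4 below 0 and 3 above, where the median of all genes was 0.08. It was -0.17 under quantile normalization and in the deposited value table, -0.15 with array median scaling, where 6 were below 0, and -0.0056 with scan as a fixed block.

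Priming makes a docked granule ready to fuse, and the member with the lowest change belongs here. Cadps2, which encodes CAPS2, a priming factor of dense core granules, had log2 signals of -4.69, -5.18 and -5.12 for siGFP and -5.46, -5.90 and -6.04 for circHIPK3 siRNA. The groups did not overlap, and the change was -0.80 ± 0.19 (SE) or 1.75-fold lower, with a 95% interval from -1.25 to -0.35 and an adjusted p of 0.0897. Within the shared scan it was -0.47, and with normexp -0.54. The probe was dim, and 2 further Cadps2 probes were not measured in full: one was well above background on no array, and the other, on 2 arrays of each group, ranged from -7.04 to -5.36 for siGFP and from -7.00 to -4.66 for circHIPK3 siRNA. Cadps2 passed with array median scaling (-0.91, limma adjusted p = 0.0463), with array weights (-0.83, limma adjusted p = 0.0333) and without circHIPK3 siRNA replicate 1 (-0.97, limma adjusted p = 0.0333), the setting in which scan and group cannot be told apart. Its adjusted p reached 0.535 over the alternatives.

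Cadps, which encodes the paralog CAPS1, gave 1.84, 1.98 and 2.05 against 1.96, 2.11 and 1.85. Its groups overlapped and the change was 0.02 ± 0.11 (SE), with a 95% interval from -0.24 to 0.28. The Munc13 genes pointed different ways. Unc13a, which encodes Munc13-1, had -2.23, -2.67 and -2.25 for siGFP and -1.997, -2.25 and -1.84 for circHIPK3 siRNA, a change of 0.36 ± 0.16 (SE, adjusted p = 0.260) with groups that overlapped slightly, or 0.21 without siGFP replicate 2. Unc13d, which encodes Munc13-4, had -2.90, -2.87 and -2.93 against -2.68, -2.64 and -2.78. All its treated arrays were higher, yet by only 0.20 ± 0.09 (SE, adjusted p = 0.266), and by 0.10 under quantile normalization. Unc13b, which encodes Munc13-2, had a change of -0.11 ± 0.10 (SE). The RIM scaffold genes Rims1 and Rims2 had changes of -0.06 ± 0.14 and 0.06 ± 0.14 (SE), and a second Rims1 probe gave 0.20 ± 0.23 (SE). The 7 priming factors had a median of 0.02, with 3 below 0, or 5 with array median scaling.

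The 5 vesicle SNAREs had changes from -0.63 to -0.07, with a median of -0.17. All 5 were negative under the 75th percentile scaling, quantile normalization, array median scaling, normexp and the deposited value table, and 4 of 5 were with scan as a fixed block. The other VAMP genes tested, Vamp1 and Vamp5, which are no members and are named after their values were seen, had changes of 0.16 ± 0.11 and 0.12 ± 0.10 (SE, adjusted p = 0.412 and 0.502), above 0 in all 18 alternatives. The 2 Munc18 and 2 complexin genes described below were negative too, except 1 of each with scan as a fixed block. None passed. Vamp3, which encodes cellubrevin, a SNARE of recycling vesicles that can also serve insulin granules, had 0.55, 0.40 and 0.27 for siGFP and -0.23, -0.63 and 0.18 for circHIPK3 siRNA. The treated arrays were lower but spread over a wider range, so that a change of -0.63 ± 0.20 (SE) or 1.55-fold lower had an adjusted p of 0.153. It was -0.63 within the shared scan, and it passed with array weights (-0.79, limma adjusted p = 0.0459, range over alternatives 0.0459 to 0.545).

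Vamp4, a SNARE of the trans-Golgi network and immature granules, was read by a pair of probes that gave nearly the same result. The brighter had 0.30, 0.50 and 0.30 against 0.27, 0.15 and 0.16, and the other 0.37, 0.31 and 0.27 against 0.22, 0.16 and 0.13. Both had non-overlapping groups, with changes of -0.17 ± 0.10 (SE, adjusted p = 0.360) and -0.14 ± 0.09 (SE), and the brighter gave -0.11 without siGFP replicate 2. Vamp7, a SNARE of late endosomes and lysosomes, had 2.16, 2.04 and 2.29 against 2.04, 1.95 and 1.78, with overlapping groups and a change of -0.24 ± 0.12 (SE, adjusted p = 0.286). Vamp8, the endosomal SNARE endobrevin, had non-overlapping groups at a change of only -0.07 ± 0.09 (SE). Vamp2, the main granule SNARE, had 2.93, 2.68 and 2.99 against 2.87, 2.69 and 2.63. Its groups overlapped, the change was -0.13 ± 0.12 (SE, adjusted p = 0.555) with a 95% interval from -0.42 to 0.16, and it was 0.01 within the shared scan.

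On the target membrane, 4 of 5 SNARE genes had changes above 0 and 1 below, with a median of 0.04. The median of all genes was 0.08, and 3 of the 5 lay below it. With array median scaling, which shifted the median of all genes by -0.10, 3 of 5 were below 0 and the median was -0.07. In none of the 5 were the groups separate, where 9.38% of all genes were separate and lower and 16.6% separate and higher. Snap25, the neuronal and endocrine SNAP protein, had 2.61, 2.48 and 2.44 for siGFP and 2.56, 2.50 and 2.98 for circHIPK3 siRNA. A single array, circHIPK3 siRNA replicate 3, was high, and the change was 0.17 ± 0.15 (SE, adjusted p = 0.518) with a 95% interval from -0.17 to 0.51, and 0.02 without that array. The same array was the highest for Snap23, the widely expressed relative, at 0.45, 0.57 and 0.09 against 0.22, 0.42 and 1.03. Its change was 0.19 ± 0.23 (SE, adjusted p = 0.656), and without that array it was -0.05. A dimmer Snap23 probe, again highest on that array, gave -0.07 ± 0.16 (SE).

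Stx1a, the syntaxin of regulated secretion, had -2.53, -2.45 and -2.45 against -2.45, -2.88 and -2.75. The lower values came from the scan without control arrays: the change was -0.22 ± 0.13 (SE, adjusted p = 0.350, 95% interval from -0.52 to 0.08) and 0.02 within the shared scan. Whether scan or treatment lowered these arrays cannot be told apart. Stx3, a syntaxin used when granules fuse with each other, and Stx4a, a plasma membrane syntaxin of many cells, had changes of 0.04 ± 0.12 and 0.02 ± 0.10 (SE). The other Stx3 probes gave 0.08 ± 0.13 and -0.07 ± 0.18 (SE), and the other Stx4a probe 0.01 ± 0.10 (SE).

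Among the Munc18 genes, Stxbp3 (Stxbp3a in older annotation), which encodes the syntaxin-4 partner Munc18c, had -0.60, -0.28 and -0.60 against -0.69, -0.51 and -0.74. The groups overlapped at a change of -0.16 ± 0.13 (SE, adjusted p = 0.491), or -0.05 without siGFP replicate 2 and -0.04 with array weights, and its other probes gave -0.08 ± 0.12 and -0.23 ± 0.14 (SE), so that all 3 had the same sign. Stxbp2, which encodes Munc18b, had 2.06, 2.00 and 2.21 against 2.14, 2.01 and 1.95, with a change of -0.05 ± 0.11 (SE, adjusted p = 0.790) and -0.16 ± 0.11 (SE) by a second probe.

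Of the 7 tethers and Rab effectors, 5 were tested, all with changes below the median of all genes, 0.08. Their median was -0.05, with 3 below 0. The median was -0.13 under quantile normalization and with scan as a fixed block, -0.12 in the deposited value table and -0.16 with array median scaling, where 5 were below 0. Sytl5, a Rab27 effector, had -2.53, -2.64 and -2.49 for siGFP and -2.69, -3.00 and -2.72 for circHIPK3 siRNA. Its groups were separate by a small margin, at a change of -0.25 ± 0.12 (SE, adjusted p = 0.269), -0.14 within the shared scan and -0.15 without circHIPK3 siRNA replicate 2. Sytl1, another of that family, had 0.04, -0.43 and 0.03 against -0.25, -0.40 and -0.31. The control arrays spanned the treated ones, with a change of -0.20 ± 0.15 (SE, adjusted p = 0.444) and -0.30 ± 0.24 (SE) by a dimmer probe. Leaving out siGFP replicate 1, 2 or 3 gave -0.12, -0.36 and -0.13. Rph3al, which encodes Noc2, a Rab effector needed for normal hormone secretion, had -2.21, -2.20 and -2.18 against -2.12, -2.21 and -2.44, a change of -0.05 ± 0.11 (SE, adjusted p = 0.811). Sytl4, which encodes granuphilin, the docking factor of insulin granules, had a change of 0.0030 ± 0.17 (SE, 95% interval from -0.39 to 0.39), and Exph5, a Rab27-binding protein gene, by 0.05 ± 0.17 (SE). The Sytl2 probe was well above background on no array and the Myrip probe on 1 circHIPK3 siRNA array, so neither has a fold change.

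Complexins clamp and then promote fusion. Cplx1 had -2.54, -2.72 and -2.57 against -3.21, -2.57 and -2.75. One array, circHIPK3 siRNA replicate 1, was low, and the change was -0.24 ± 0.17 (SE, adjusted p = 0.443), or -0.05 without that array. Cplx2 had 4 probes, of which the brightest gave 4.42, 4.56 and 4.52 against 4.53, 4.63 and 4.21, a change of -0.04 ± 0.13 (SE, adjusted p = 0.877). The other 3 gave -0.12 ± 0.13, -0.16 ± 0.09 and -0.10 ± 0.10 (SE), and for 1 of them the groups did not overlap.

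The recycling genes take spent complexes apart or keep their proteins folded. Nsf, the ATPase that separates SNARE complexes, had 2.88, 2.79 and 2.92 against 2.89, 2.85 and 2.97, a change of 0.04 ± 0.10 (SE, adjusted p = 0.830). Napa, which encodes alpha-SNAP, had 3.23, 3.20 and 3.24 against 3.28, 3.16 and 3.14, a change of -0.03 ± 0.09 (SE, adjusted p = 0.891), while its second probe had 2.42, 2.46 and 2.42 against 2.19, 2.33 and 2.33 and gave -0.15 ± 0.09 (SE) with separate groups.

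Dnajc5 encodes cysteine string protein, a chaperone of SNAP-25 on secretory vesicles, and its probes disagreed more than those of any other member with several measured probes. The brightest had 4.89, 4.72 and 4.82 against 4.80, 4.75 and 4.97, a change of 0.03 ± 0.11 (SE, adjusted p = 0.887). A second had -0.74, -0.90 and -0.62 against -0.51, -0.38 and -0.34, and the dimmest -1.82, -1.98 and -1.72 against -1.48, -1.60 and -1.37. Both dimmer probes were higher on all circHIPK3 siRNA arrays, by 0.34 ± 0.11 and 0.36 ± 0.11 (SE), and neither passed over all measured probes (limma adjusted p = 0.157 and 0.148). All 3 carry the same transcript accession, and which stretch of the transcript each one reads is not known here. Across the 12 members with several measured probes, 29 in all, the probes of 9 had one sign and those of 3 (Snap23, Stx3 and Rims1) had both.

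**Figure D2:**
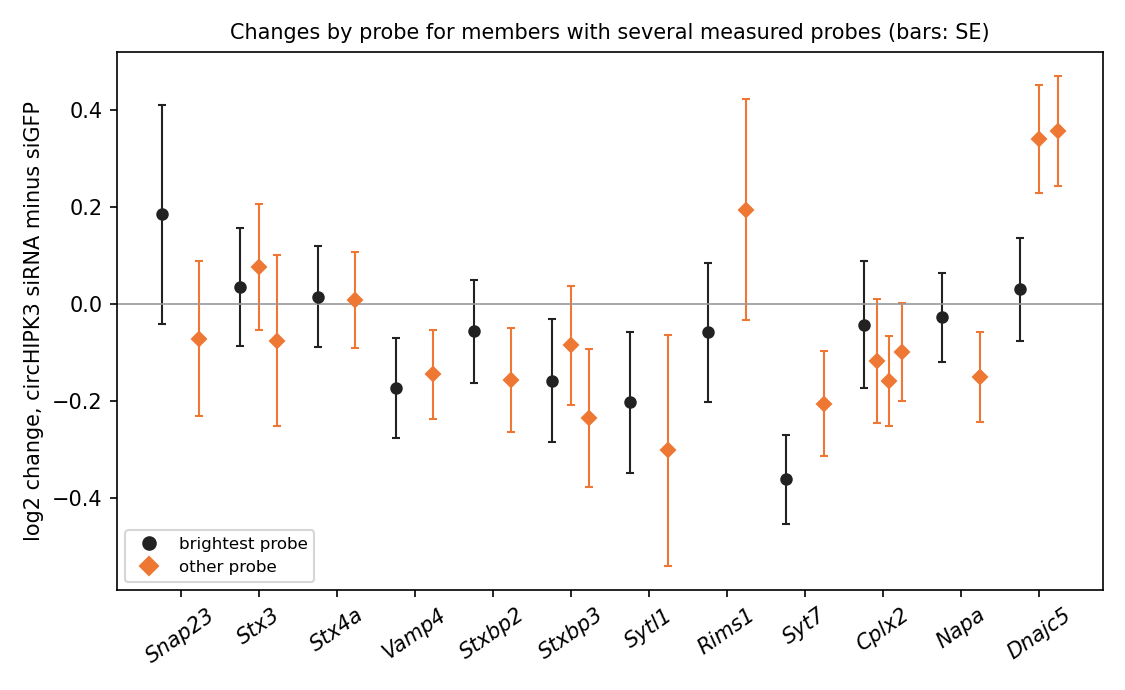
Log2 change (y axis, circHIPK3 siRNA minus siGFP, bars give the SE) for each measured probe of the 12 members with several probes (x axis); black circles are the brightest probe and orange diamonds the others. The dimmer Dnajc5 probes lie at 0.34 and 0.36 above a brightest probe at 0.03, and the Vamp4 probes lie together at -0.17 and -0.14.

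Taking the 36 members as a whole, the median change was -0.05, with 21 below 0 and 15 above (31 below 0 with array median scaling). The median of all genes was 0.08, and 31 members (86.1%) lay below it, as did 68.0% of genes at or above the median signal. Under quantile normalization 24 members lay below that setting's median of all genes, 0.03. The groups did not overlap for 7 members that were lower (Vamp3, Vamp4, Vamp8, Sytl5, Cadps2, Syt7 and Syt11), 19.4% of the members against 9.38% of all genes, and for 2 that were higher (Unc13d and Syt4), 5.56% against 16.6%. Signal level moved with this balance: 24 of the members lay at or above the median signal of all genes, and genes at or above it had a median change of 0.0047 with 13.7% separate and lower and 10.4% separate and higher. The 24 members there had a median of -0.03, with 16.7% separate and lower and 4.17% separate and higher. The part of signal level in the members' balance was not tested. The median deviation of the members from the siGFP mean was 0.01, -0.04 and 0.01 in the control group and -0.0079, -0.05 and -0.10 after circHIPK3 siRNA, so that replicate 1, the array scanned with the controls, lay within the control range. Array median scaling shifted the median of all genes by -0.10, which moves the members alike, so that relative to it the members' median was -0.14 in both. That relative median was -0.11 under quantile normalization, -0.08 with normexp and -0.05 with scan as a fixed block.

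**Figure D3:**
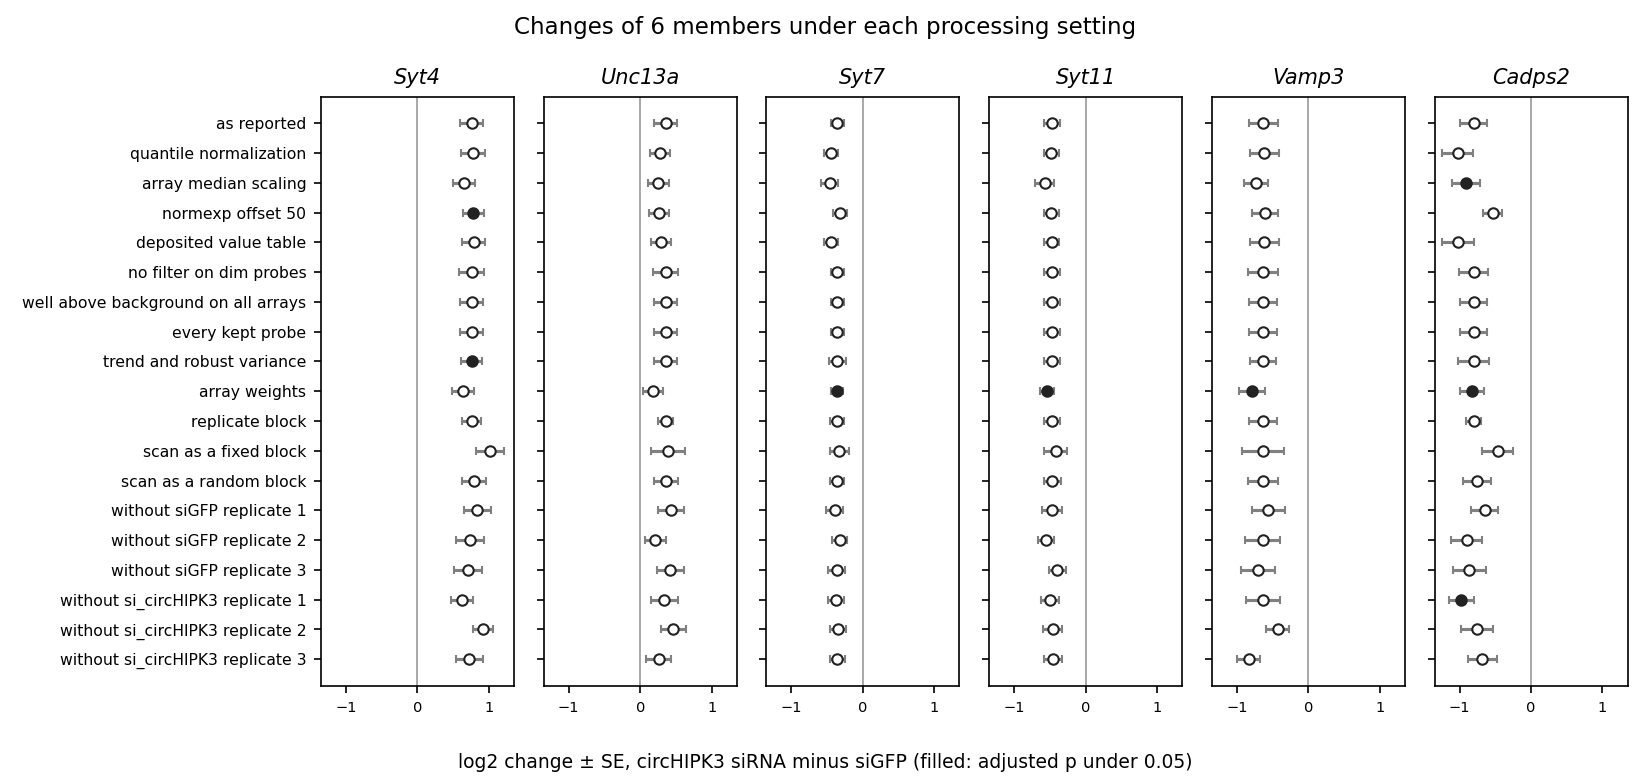
Log2 change (x axis, bars give the SE) of 6 members, Syt4, Unc13a, Syt7, Syt11, Vamp3 and Cadps2, as reported and under 18 alternatives (y axis); filled points have an adjusted p under 0.05. Each keeps its sign throughout, and filled points appear 2 times for Syt4, 3 times for Cadps2 and 1 time each for Syt7, Syt11 and Vamp3.

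The wider pathway was read from lists of genes that are not members. Among 23 other SNAREs, which act at the plasma membrane, endoplasmic reticulum, Golgi, endosomes and lysosomes, 0 passed and the median was 0.01. The smallest p-values there belonged to the trans-Golgi syntaxin gene Stx6 at 0.25 ± 0.12 (SE, adjusted p = 0.275) and to Vti1a at -0.23 ± 0.11 (SE, adjusted p = 0.281). Among 18 other regulators of SNAREs 0 passed (median 0.09), with Txlna, which encodes the syntaxin-binding protein alpha-taxilin, at -0.40 ± 0.13 (SE, adjusted p = 0.165) and the secretory carrier protein gene Scamp1 at -0.28 ± 0.10 (SE, adjusted p = 0.180). In 18 tested active zone and exocyst genes 0 passed (median 0.05), with Pclo, which encodes the scaffold piccolo, at -0.28 ± 0.12 (SE, adjusted p = 0.232) and Rimbp2 at -0.22 ± 0.11 (SE, adjusted p = 0.294).

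The single call in these lists was in the list of other synaptotagmins and related proteins. There 1 of 15 tested genes was called lower and 14 did not pass (median 0.12, with 10 above 0 and 5 below). Of all genes 1.18% were called, in either direction. Esyt1 encodes an extended synaptotagmin that tethers the endoplasmic reticulum to the plasma membrane and is no fusion trigger. It had log2 signals of 1.86, 1.95 and 1.84 for siGFP and 1.12, 1.11 and 1.01 for circHIPK3 siRNA. All treated arrays were lower, with a change of -0.80 ± 0.09 (SE, adjusted p = 0.0289) and -0.76 with scan as a fixed block, where it did not pass (limma adjusted p = 0.152). It passed under 10 of 18 alternatives, with limma adjusted p from 0.00203 to 0.152, and the call was lost without any 1 siGFP array (-0.77 to -0.82), without circHIPK3 siRNA replicate 2 (-0.82) and without replicate 3 (-0.77). Esyt2 and Syt3 were also lower on all treated arrays, at -0.39 ± 0.10 and -0.32 ± 0.12 (SE, adjusted p = 0.0974 and 0.198). The groups overlapped for Esyt3, at -0.05 ± 0.22 (SE).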

How the data were processed

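Total RNA of 6 samples was labelled with Cy3 and read on 6 arrays. The deposited scanner files hold spot intensity, background-corrected by the authors' software (per the file headers), which the submitters' processing notes give as Agilent Feature Extraction 11.0.1.1. The authors' deposited value table holds log2 values of 31868 probes. Its column maxima are all equal and its normalization is not given in the sources used here, so it served as an alternative.

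Signals of 43020 spots that are no controls were put on a log2 scale relative to each array's 75th percentile, and spots with outlier marks were left out. Spots of one probe were averaged. Probes well above background on all 3 arrays of a group were kept (31380 of 39429). Accessions were matched to a RefSeq gene table, which named 27234 probes and left 12195 unnamed, and the brightest probe stood for a gene. The build that the files name differs from that of the table, so no coordinates are given.

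Groups were compared with limma 3.58.1 in R 4.3.3 (lmFit, eBayes), and p-values were adjusted by Benjamini-Hochberg across all 25776 tested (unnamed transcripts included), at a threshold of 0.05. No probe was saturated. The number of arrays limits the precision. In a simulation, 200 genes were changed, values were drawn independently for each gene and array, and no scan difference was built in. There the test recovered 22.4% of 1.5-fold, 61.5% of 2-fold and 85.2% of 3-fold changes. These shares hold for that setting, and recovery on the real arrays was not tested. Files record a scan, which entered as a block in alternatives. As a fixed block it makes each change that of circHIPK3 siRNA replicate 1 alone against the siGFP mean.

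Values per array are given for members with an adjusted p under 0.1 and for up to 3 members with the smallest p in each role, and other probes or members are named for comparison. Members and lists were chosen with earlier results of these data known. The alternatives were quantile and array median scaling, normexp (offset 50), the value table, filters on dim probes, every probe, trend and robust variance, array weights, replicate or scan as a block, and leaving out each array.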

Additional observations from a re-analysis of the deposited data

How the results depend on the processing

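The count of 0 members called became 1 with array median scaling (Cadps2), 1 with normexp (Syt4), 1 with trend and robust variance (Syt4) and 4 with array weights (Vamp3, Syt11, Syt7 and Cadps2), and 0 to 1 on leaving out single arrays. The 1 came without circHIPK3 siRNA replicate 1, where the groups lie in separate scans. By role, vesicle SNAREs gave 1 with array weights, priming factors 1 with median scaling, 1 with array weights and 0 to 1 on leaving out arrays, and synaptotagmins 1 with normexp, 1 with trend and 2 with array weights. The list of other synaptotagmins, with 1 call, gave 0 with no filter, with the replicate block and with scan as a fixed block, 2 with trend and 2 with array weights, and 0 to 1 on leaving out arrays. The members' median moved from -0.05 to -0.15 with median scaling and to -0.0079 with scan as a fixed block. Signs turned, with no call on either side, for 8 of the 22 members described in full. With scan as a fixed block these were Stx1a (0.022), Snap23 (-0.15), Stxbp2 (0.053), Rph3al (0.084), Cplx2 (0.028), Dnajc5 (-0.010) and Napa (0.061). With median scaling they were Nsf (-0.062) and Dnajc5 (-0.072), and with array weights Cplx2 (0.045), Nsf (-0.013) and Dnajc5 (-0.026). On leaving out arrays the ranges were -0.053 to 0.354 for Snap23, -0.109 to 0.0063 for Stxbp2, -0.120 to 0.039 for Rph3al, -0.129 to 0.081 for Cplx2, -0.036 to 0.078 for Dnajc5 and -0.070 to 0.00091 for Napa. The cause was not tested. The other 14 kept their sign in all 18 alternatives. Over all genes, 303 calls became 602 with median scaling, 185 with the value table, 177 with the stricter filter, 622 with trend, 1804 with array weights, 124 with scan as a random block, and 0 with no filter, the replicate block or scan as a fixed block. Leaving out arrays gave 0 to 1736. In the limma fits with no filter, the replicate block and scan as a fixed block, 5631, 5133 and 2676 genes had an unadjusted p under 0.05. The deviations of same-numbered samples from their group means correlated at -0.02, 0.27 and -0.13. With 3 samples per group these values cannot decide whether same-numbered samples were prepared together, and the labels do not say. With the replicate block 0 members were called, as were 0 of all genes.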
